A study of Homo sapiens with 6 samples.

Results

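Hepatocyte identity is held by a small set of DNA-binding proteins, and 8 of their genes are described here out of 20033 protein-coding genes: HNF4A, HNF4G, FOXA1, FOXA2, FOXA3, ONECUT1, CEBPA and NR1H4. They were chosen by name, as factors known to define the liver cell. For each gene, every ATAC-seq peak within 1 kb of an annotated start site, in the gene body or within 50 kb of the gene was collected. ATAC-seq marks DNA that is open to a transposase, and 106 of the 166021 open sites of the series met this rule.

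HLF is an established human liver cancer cell line. SNDX-5613 (revumenib) blocks the binding of menin to the histone methyltransferase MLL1. The series holds 3 libraries of HLF cells treated with the vehicle DMSO and 3 libraries of cells treated with 5 μM SNDX-5613, with no further genotype or agent given in the labels. The labels state 24 h of treatment and the same batch for all 6 libraries, whereas the study's text describes a longer treatment, so the duration is uncertain. The study's text describes a replicate as a dish of cells divided between treatment and control, without saying which libraries share a dish. The labels do not say that the dishes were separate cultures, and the p-values then measure only the spread between these libraries.

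The liver factors form a network in which each gene is bound by several of the others. FOXA proteins are forkhead pioneer factors that can bind closed chromatin, HNF4A and HNF4G are orphan nuclear receptors that turn on genes of lipid and glucose metabolism, ONECUT1 (HNF6) is a cut-homeodomain factor of the liver and biliary lineage, CEBPA is a leucine zipper factor of metabolic genes and growth arrest, and NR1H4 (FXR) is the nuclear receptor for bile acids. Poorly differentiated liver cancer lines are known to lose part of this network.

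The 5 deeper libraries gave 88026 to 113675 open regions each, and SNDX-5613 replicate 3 gave 40568. Depth was read from the peak lists as the genome-wide background pileup, the mean number of fragments over a base, which was 0.997 to 1.51 in the 5 deeper libraries and 0.211 in SNDX-5613 replicate 3. The latter is 16.2% of the median of the others, so the comparisons of the groups below are also given without that library. All 8 ubiquitous genes of a reference list had an open promoter in all 6 libraries. Of the 8 hepatocyte genes used to check the cell type, ALB, APOA1, APOA2 and FGB had an open promoter in 0 libraries, SERPINA1 and TF in 2, and AFP and TTR in the 5 deeper ones, while 10 of 12 mesenchymal genes had one in all 6. Of the wider list of 26 hepatocyte products, 15 had an open promoter in 0 libraries, including ALB, while ASGR1 had one in all 6, APOB and F2 in the 5 deeper ones and FGG in 4. Of all protein-coding genes, 63.6% had one in all 6 libraries and 19.9% in 0. In what follows, the percentile of a region is its position among all regions of its own library, ordered by the authors' -log10 p, with 100 for the strongest.

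Of the 8 genes, 5 had an open promoter, a region centred within 1 kb of any start site, in all 6 libraries, against 63.6% of all protein-coding genes. A promoter without such a region is called closed here, which means no more than that no peak was called. The 5 open genes were CEBPA, ONECUT1, FOXA1, HNF4G and, by position alone, FOXA3. HNF4A and NR1H4 had one in 0 of 6 libraries, 2 of 8 genes against 19.9% of all protein-coding genes. FOXA2 lay between them, with a region in 1 DMSO and 1 SNDX-5613 library. By library, 5, 6 and 5 of the 8 genes had an open promoter with DMSO and 5, 6 and 5 with SNDX-5613. Both groups had a mean of 5.33 ± 0.577 genes (SD, n = 3; exact two-sided permutation test p = 1, where 3 against 3 libraries cannot go below p = 0.1). Without SNDX-5613 replicate 3 the difference of the means was 0.167 genes (exact permutation p = 1).

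**Figure D1:**
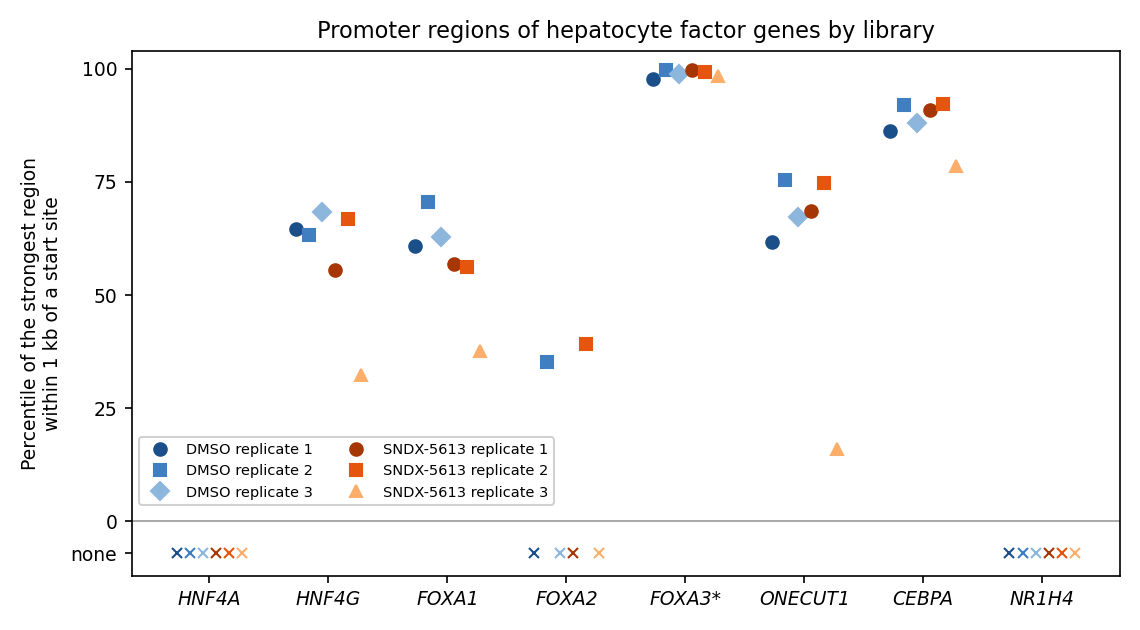
Percentile, within its own library, of the strongest region within 1 kb of a start site of each of the 8 genes (y axis), for the 6 libraries (colours and symbols); crosses stand for libraries with no such region. CEBPA lies between 78.5 and 92.3 in all libraries, HNF4A and NR1H4 have no region in any, and the asterisk on FOXA3 recalls that its region lies at the start site of SYMPK.

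Leaving aside the region that FOXA3 shares with a neighbour, CEBPA had the strongest promoter of the 8 genes. Its region (hg38 chr19:33302164-33303228, 98 bp upstream of the only annotated start) stood at percentiles 86.3, 91.9 and 88.1 with DMSO and 90.9, 92.3 and 78.5 with SNDX-5613. The start of the noncoding gene CEBPA-DT is 225 bp from the same summit. The ONECUT1 promoter (chr15:52789724-52790743, 86 bp from the canonical start) stood at 61.6, 75.4 and 67.2 with DMSO and at 68.6, 74.7 and 16.0 with SNDX-5613. The low value is that of the shallow library, where only 5 fragments lay over the summit. The FOXA1 promoter (chr14:37594254-37595363, within the gene and 336 bp from its nearest start) stood at 60.8, 70.5 and 62.9 with DMSO and at 56.8, 56.1 and 37.7 with SNDX-5613. Here every SNDX-5613 percentile lay below every DMSO percentile, on a scale that also moves with the number of regions in a library. The sequences of these open promoters are shown because their composition differs from that of the closed HNF4A promoter given further on. The CEBPA sequence (chr19:33302535-33302734, minus strand) and the ONECUT1 sequence (chr15:52790337-52790536, minus strand) are the 200 bases upstream of the canonical start, and the FOXA1 sequence (chr14:37594514-37594714, minus strand) is 201 bases centred on the summit, all from hg38. Capitals mark matches, on either strand, to GGGCGG (SP) and to TGTTTNC (forkhead), and none shares a letter with another.
CEBPA: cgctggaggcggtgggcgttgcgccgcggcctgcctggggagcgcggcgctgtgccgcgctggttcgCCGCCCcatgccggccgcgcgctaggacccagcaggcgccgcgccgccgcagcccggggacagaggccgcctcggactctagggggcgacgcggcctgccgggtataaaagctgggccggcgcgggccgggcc
ONECUT1: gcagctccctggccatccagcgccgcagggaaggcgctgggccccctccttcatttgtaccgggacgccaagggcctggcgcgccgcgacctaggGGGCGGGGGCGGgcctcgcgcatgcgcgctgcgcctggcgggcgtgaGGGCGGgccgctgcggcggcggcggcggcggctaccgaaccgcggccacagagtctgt
FOXA1: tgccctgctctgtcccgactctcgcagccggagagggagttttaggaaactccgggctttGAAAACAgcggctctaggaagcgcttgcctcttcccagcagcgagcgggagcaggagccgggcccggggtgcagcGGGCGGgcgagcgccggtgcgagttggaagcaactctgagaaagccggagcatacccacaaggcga
The CEBPA and ONECUT1 sequences hold 33 and 29 CpG and have a GC content of 80.5% and 78.0%. GGGCGG occurs 1 time in the CEBPA and 3 times in the ONECUT1 sequence, and it is common, with a match in 56.3% of the 200-base windows upstream of all protein-coding genes. The FOXA1 sequence holds 18 CpG, 1 GGGCGG match and 1 forkhead match, the letters that FOXA proteins themselves are known to bind, which 14.0% of all site windows hold.

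ONECUT1 had a region at a further start as well. It lay in a noncoding exon of an alternative transcript (chr15:52780573-52780899), at percentiles 42.4, 61.5 and 56.2 with DMSO and 37.9 and 34.3 in SNDX-5613 replicates 1 and 2, and it was not called in SNDX-5613 replicate 3. FOXA3, the third forkhead gene, had a region within 1 kb of its first start in all libraries, at percentiles 97.7, 99.7 and 98.8 with DMSO and 99.8, 99.3 and 98.5 with SNDX-5613. That region (chr19:45862546-45863549) was centred 34 bp from a start of SYMPK, which encodes a scaffold protein of mRNA 3' end processing, and 761 bp from the nearest FOXA3 start. A region of FOXA3 itself, 108 bp from its canonical start, was called in SNDX-5613 replicate 1 alone, at percentile 32.0. FOXA3 is therefore counted as open only through the promoter of its neighbour.

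FOXA2 had a weaker promoter region than FOXA1, called in fewer libraries. Its promoter region (chr20:22584245-22584576), 147 bp from the canonical start, was called in DMSO replicate 2 at percentile 35.2 and in SNDX-5613 replicate 2 at 39.3, with 13 and 19 fragments over the summit. A region 1348 bp upstream of its first start (chr20:22586621-22587113) stood at 27.6 and 30.7 in DMSO replicates 1 and 3 and at 29.1 and 33.6 in SNDX-5613 replicates 1 and 2. In DMSO replicate 1 a summit lay 1012 bp from the canonical start, just outside the distance of 1 kb, at percentile 0.519. With a promoter distance of 3 kb, FOXA2 was open in 3 DMSO and 2 SNDX-5613 libraries. All 5 FOXA2 sites stood below the middle of their library, and none was present in all 6 libraries.

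HNF4A (chr20:44355699-44432845) and NR1H4 (chr12:100473708-100564414) had no region at any annotated start. HNF4A is transcribed from the upstream promoter P2 and, farther downstream, from P1, the promoter used in adult hepatocytes. The summit nearest to the P2 start at 44355699 was 6493, 3778 and 7799 bp away with DMSO and 7804, 3111 and 32977 bp away with SNDX-5613. For the first P1 start, at 44401239, the distances were 4205, 3740 and 4209 bp with DMSO and 4269, 6359 and 12563 bp with SNDX-5613. Both promoters were thus without a called region in all libraries. For NR1H4 the nearest summit to the first start was 42593 to 43370 bp away in the 6 libraries, and only 2.78% of protein-coding genes lay as far or farther from a site. The 200 bases upstream of the first P1 start of HNF4A (chr20:44401039-44401238, plus strand) are shown for comparison with the open promoters, with capitals at matches to ATTGAT (ONECUT) and GGGCGG on either strand.
HNF4A P1: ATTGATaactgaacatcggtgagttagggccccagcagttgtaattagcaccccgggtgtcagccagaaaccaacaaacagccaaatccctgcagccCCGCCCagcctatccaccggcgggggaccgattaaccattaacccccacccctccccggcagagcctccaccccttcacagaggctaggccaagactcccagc
The HNF4A sequence holds 7 CpG with a GC content of 59.5%, fewer CpG than in the CEBPA and ONECUT1 windows. The ATTGAT match in HNF4A is of the letters bound by the ONECUT family, and 3.17% of upstream windows hold it.

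The CpG content was then set against all genes. The observed over expected CpG ratio within 500 bp of the canonical start was 0.941 for CEBPA, 0.865 for FOXA1, 0.862 for ONECUT1, 0.759 for FOXA3, 0.672 for FOXA2, 0.368 for HNF4A and 0.223 for NR1H4. Of the 13278 protein-coding genes with a ratio of at least 0.6, 82.9% had an open promoter in all 6 libraries, and of the 6755 genes below it, 25.7%. CEBPA, FOXA1, ONECUT1 and FOXA3, open in all 6 libraries, lay above this value, and HNF4A and NR1H4, closed in all 6, lay below it. FOXA3 is open here only through the promoter of SYMPK. At its own canonical start, where its ratio was taken, a region was called in SNDX-5613 replicate 1 alone. FOXA2 lay above it with a region in 2 libraries, where 73.7% of the genes with a ratio from 0.6 to 0.7 were open in all 6 libraries. The order of the 8 genes by CpG content is a description of genes and was not tested.

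**Figure D2:**
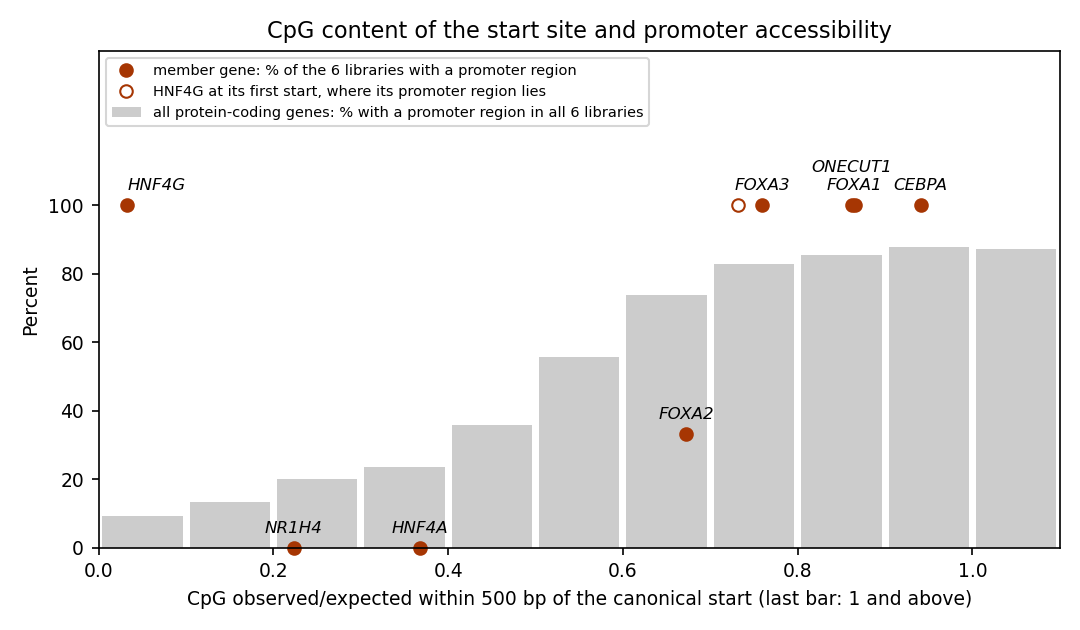
Observed over expected CpG within 500 bp of the canonical start (x axis) against the share of all protein-coding genes with an open promoter in all 6 libraries (grey bars, in percent) and the share of the 6 libraries with an open promoter for each of the 8 genes (filled circles); the open circle gives HNF4G at its first start. HNF4A and NR1H4 lie at 0 percent with ratios of 0.368 and 0.223, and FOXA2 lies below the bar of its ratio. FOXA3 counts as open only through the region at the start site of SYMPK.

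HNF4G (chr8:75407914-75566834) is a paralog of HNF4A that is known from gut and liver. Its canonical start at 75539869 has a CpG ratio of only 0.0329, and the nearest summit in any library was 15112 bp from it. Its open promoter was the group of starts far upstream, the first at 75407914, where the ratio is 0.732. The region there (chr8:75406829-75408430) stood at percentiles 64.5, 63.3 and 68.4 with DMSO and 55.6, 66.7 and 32.4 with SNDX-5613. The groups overlapped. The summit nearest to the first start was 9 to 852 bp from it over the 6 libraries. The paralogs thus differed in this line, with a promoter region of HNF4G in 6 of 6 libraries and of HNF4A in 0 of 6. The strongest HNF4G site by mean percentile lay in an intron (chr8:75483438-75483634) and was not called in SNDX-5613 replicate 3. It stood at 60.5, 79.3 and 72.0 with DMSO and at 74.3 and 69.2 in SNDX-5613 replicates 1 and 2.

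The wider neighbourhoods differed in how many open sites they held. The 106 sites were 36 at HNF4A, 23 at CEBPA, 16 at FOXA3, 12 at HNF4G, 7 at NR1H4, 5 at FOXA2, 4 at ONECUT1 and 3 at FOXA1. Per 100 kb this was 22.4 sites at CEBPA and 20.3 at HNF4A, more than at 97.6% and 94.5% of protein-coding genes, against a median of 9.15. FOXA1 and ONECUT1, with open promoters, had 2.82 and 2.94 sites per 100 kb, and NR1H4, with none, had 3.67. The densest neighbourhoods were thus those of a gene with an open promoter, CEBPA, and of one with closed promoters, HNF4A. Many sites were called in few libraries. Of the 106 sites, 46 were called in 1 library only, 43.4% against 36.2% of all sites, and 17 were called in all 6 libraries, 16.0% against 20.1%. At CEBPA, 12 of the 23 sites were called in 1 library only and 1 in all 6. At HNF4A, 20 of the 36 sites were called in 1 library only and 4 in all 6, and 9 lay at promoters of other genes. The densities above count a site called in any library.

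**Figure D3:**
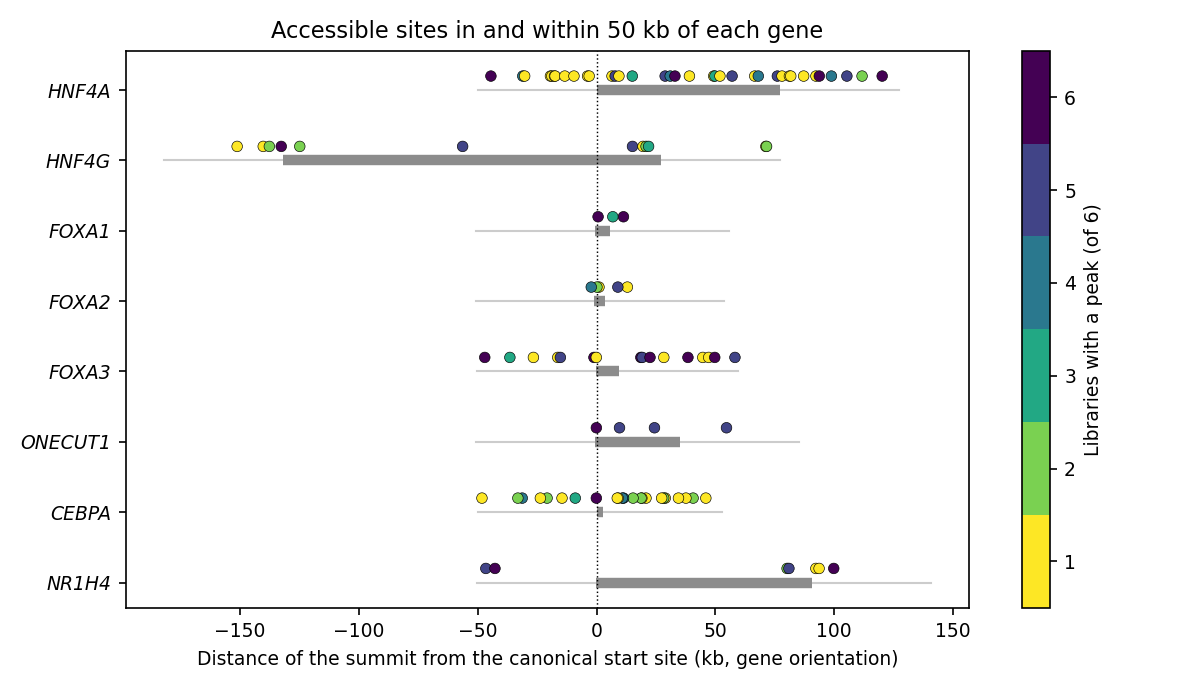
Position of each of the 106 sites relative to the canonical start of its gene (x axis, kb, in the direction of transcription), 1 row per gene, coloured by the number of libraries with a peak; thick grey bars are gene bodies and thin lines the 50 kb on either side. HNF4A and CEBPA hold 36 and 23 sites, and the summit nearest to a start of NR1H4 lies 42593 bp away.

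HNF4A had open sites in its body although both of its promoters were closed. The strongest of these lay in an intron, between P2 and P1 and inside the antisense gene HNF4A-AS1 (chr20:44388489-44388907, 32972 bp from the P2 start). It stood at percentiles 78.1, 85.1 and 80.2 with DMSO and at 85.9, 87.0 and 53.1 with SNDX-5613, with 66, 88 and 80 fragments over the summit with DMSO and 87, 102 and 13 with SNDX-5613. The 201 bases around its summit (chr20:44388571-44388771, plus strand) are shown because it is the strongest open site within the body of HNF4A. Capitals mark CCAAT, the letters bound by NF-Y, the factor that the study set beside menin, on either strand (ATTGG on the other strand).
HNF4A intron: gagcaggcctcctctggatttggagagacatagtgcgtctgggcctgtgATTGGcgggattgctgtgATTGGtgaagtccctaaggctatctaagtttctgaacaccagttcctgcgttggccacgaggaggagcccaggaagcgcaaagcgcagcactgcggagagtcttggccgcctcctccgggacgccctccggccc
The sequence holds 2 CCAAT matches, and 2 or more within 100 bp of the summit were present at 5.35% of all sites and at 4 of the 106 sites of the 8 genes. At least 1 match was present at 21 of the 106 sites (19.8%) and at 24.3% of all sites.

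NR1H4 had 1 site in all 6 libraries that was no promoter of another gene. It lay upstream of the gene, between NR1H4 and SLC17A8. The DNA around its summit is in part repeated in the genome. Of 5 evenly spaced stretches of 50 bases, 3 occur once in hg38 and the most frequent occurs 9 times, while all 5 stretches of each sequence shown here occur once. Reads from such stretches can align to several places, and how the authors treated them is not given in the sources used here.

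The other motifs were searched in the same way, in the 201 bases around each summit. The forkhead letters TGTTTNC were found at 12 of the 106 sites (11.3%, against 14.0% of all sites), TTGCNNAA of the C/EBP family at 7 (6.60% against 7.27%), the ONECUT letters ATTGAT at 10 (9.43% against 3.89%) and the HNF4 letters CAAAGTCCA at 0 (against 0.234%). TGANTCA, bound by AP-1, was found at 14 sites (13.2% against 15.5%), CATTCC of TEAD at 19 (17.9% against 15.5%), AGATAA of GATA at 5 (4.72% against 6.97%) and GGGCGG at 21 (19.8% against 14.5%). The shares moved when only the 32 sites called in all 5 deeper libraries were kept, against all sites so called. ATTGAT was then found at 2 (6.25% against 3.39%), TGANTCA at 2 (6.25% against 18.8%) and CCAAT at 10 (31.25% against 25.6%). All these shares describe letters in windows and were not tested.

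SNDX-5613 was then compared with DMSO over all sites of the 8 genes. The regions within reach of the genes numbered 51, 63 and 57 with DMSO and 61, 59 and 20 with SNDX-5613. As a share of a library's regions this was 0.0575% ± 0.00189 (SD, n = 3) with DMSO and 0.0557% ± 0.00588 (SD, n = 3) with SNDX-5613, a difference of -0.00183 percentage points (exact two-sided permutation p = 0.8). Without SNDX-5613 replicate 3 the difference was 0.00136 percentage points (exact permutation p = 0.5). A peak in all 3 libraries of SNDX-5613 with none under DMSO was found at 0 of 106 sites, against 0.147% of all sites. The converse, a peak in all 3 libraries of DMSO with none under SNDX-5613, was found at 1 of 106, against 1.18% of all sites. It lay in an intron of HNF4G (chr8:75561491-75561823), at percentiles 14.5, 39.6 and 25.5 in the DMSO libraries, with 8, 14 and 11 fragments over the summit.

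Without SNDX-5613 replicate 3, the counts were 3 of 106 sites in both SNDX-5613 and no DMSO library, against 2.39% of all sites, and 2 of 106 in all DMSO and neither SNDX-5613 library, against 1.21%. All 3 of the former lay around CEBPA, at 28255 bp downstream and at 20821 and 33111 bp upstream of its start. In SNDX-5613 replicates 1 and 2, their percentiles were 18.4 and 6.89 at the first, 32.7 and 22.6 at the second, and 22.9 and 21.1 at the last. The regions around CEBPA numbered 6, 8 and 6 with DMSO and 11, 13 and 2 with SNDX-5613. The difference in regions per 10000 was 0.514 without SNDX-5613 replicate 3 (exact permutation p = 0.1, the smallest possible) and 0.284 with it (exact permutation p = 0.4). When each library was cut to its 40568 strongest regions, CEBPA had 1 region in each of the 5 deeper libraries and 2 in SNDX-5613 replicate 3, so the difference lay among weaker regions. The background pileups were 0.997, 1.305 and 1.447 with DMSO and 1.26 and 1.51 in SNDX-5613 replicates 1 and 2. The part of depth in this count was not tested. Around HNF4G the regions numbered 6, 9 and 9 with DMSO and 7, 4 and 1 with SNDX-5613, a difference of -0.365 per 10000 (exact permutation p = 0.1), and of -0.270 without SNDX-5613 replicate 3 (exact permutation p = 0.2). At equal numbers of regions HNF4G had 2 in each of the 5 deeper libraries and 1 in SNDX-5613 replicate 3. CEBPA and HNF4G had the largest differences of the 8 genes and were singled out after the counts were seen. For each of the other genes the exact permutation p was at least 0.3, with and without SNDX-5613 replicate 3.

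For the 17 sites of the 8 genes that were called in all 6 libraries, the strength was compared as a rank percentile among the 33405 sites called in all 6. A rank removes the scale that depth gives to -log10 p. Other effects of depth can remain, as at sites with few fragments in the shallow library. At the site upstream of NR1H4 the ranks were 22.2, 18.0 and 25.7 with DMSO and 4.28, 2.83 and 5.12 with SNDX-5613. All SNDX-5613 libraries were below all DMSO libraries, with a mean of 4.08 ± 1.16 (SD, n = 3) against 22.0 ± 3.87 (SD, n = 3), a difference of -17.9 (exact two-sided permutation p = 0.1, the smallest possible). Without SNDX-5613 replicate 3 the difference was -30.2, over the larger set of sites called in the 5 other libraries (exact permutation p = 0.1). The fold enrichment at this summit was 8.49, 8.47 and 8.88 with DMSO and 5.85, 4.75 and 3.82 with SNDX-5613. In limma's moderated test across all 33405 sites its log2 fold enrichment fell by 0.63 (SE 0.18, unadjusted p = 0.00534, adjusted p = 0.583), which does not pass an adjusted p of 0.05. It fell by 0.71 without SNDX-5613 replicate 3 (limma adjusted p = 0.195). The fold of 3.82 is that of the shallow library, with 5 fragments over the summit. The authors' fold adds a constant to pileup and background, which lowers it at low depth. The parts of depth and of the repeated stretches in the difference at this site were not tested.

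**Figure D4:**
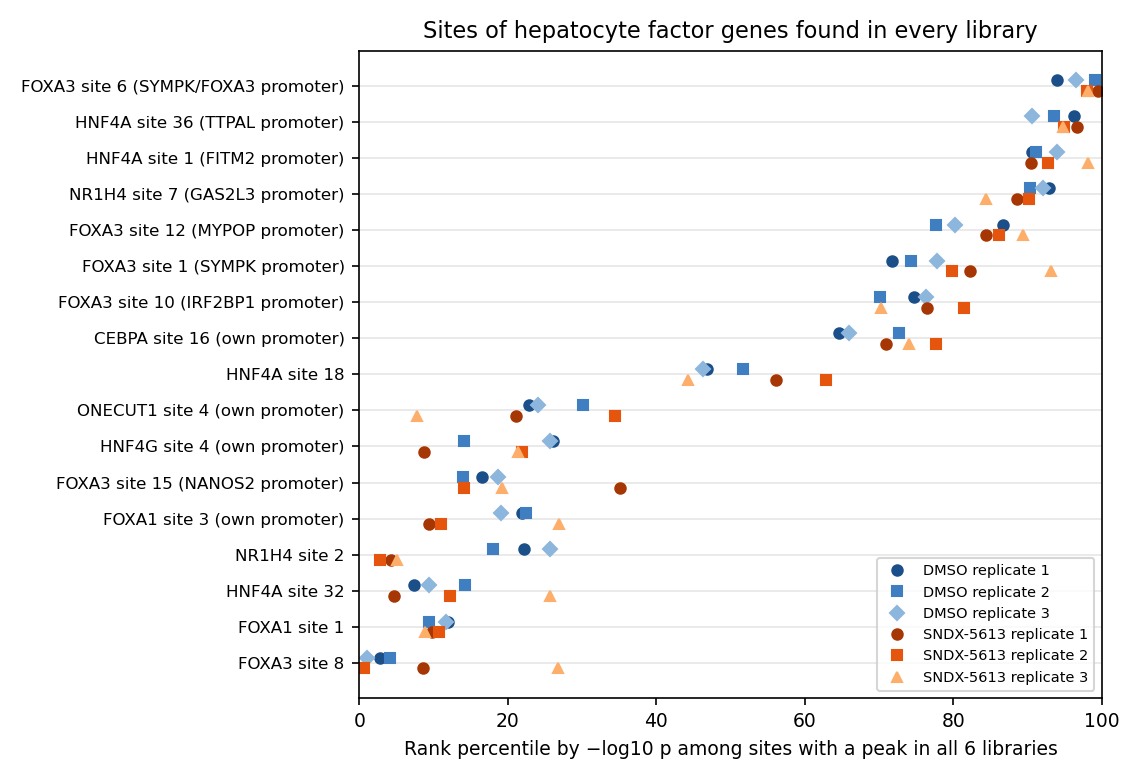
Rank percentile by -log10 p (x axis) of the 17 sites called in all 6 libraries, among the 33405 such sites of the series, with the DMSO libraries in blue and the SNDX-5613 libraries in orange. At NR1H4 site 2, the site upstream of NR1H4, the SNDX-5613 libraries lie between 2.83 and 5.12 and the DMSO libraries between 18.0 and 25.7; most other sites overlap between the groups.

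In all, 1 of the 17 sites ranked higher in every SNDX-5613 than in every DMSO library, against 8.54% of all 33405 sites, and 2 of 17 ranked lower, against 8.08%. The numbers are near those of all sites. The higher site was a promoter of SYMPK upstream of FOXA3 (chr19:45817035-45817590), with ranks of 71.8, 74.3 and 77.8 with DMSO and 82.2, 79.8 and 93.1 with SNDX-5613. The second lower site was the promoter of GAS2L3 downstream of NR1H4 (chr12:100573324-100574227), at 92.8, 90.3 and 92.1 with DMSO and 88.6, 90.2 and 84.5 with SNDX-5613, and ranked by fold enrichment it turned to a difference of 1.32. Neither is a promoter of a liver factor. limma called 0 of 33405 sites (0%) at an adjusted p of 0.05, with 2372 at an unadjusted p under 0.05, of which 1 was among the 17, the site upstream of NR1H4. With the replicate number as a block limma called 4 sites higher, and without SNDX-5613 replicate 3 it called 8, and 0 of the 17 were among them in either fit. The limma fits used the deposited fold, only at sites called in every library, the shallow one included. The study's count model, on read counts, did report regions with gained and with lost accessibility.

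By rank among the sites called in all 6 libraries, the promoters of the factors themselves overlapped between the groups. By percentile among all regions of a library, the FOXA1 promoter did not overlap, as given above. The CEBPA promoter ranked at 64.6, 72.8 and 65.9 with DMSO and 71.0, 77.7 and 74.1 with SNDX-5613, a difference of 6.49 (exact permutation p = 0.2). The ONECUT1 promoter differed by -4.63 (exact permutation p = 0.7), the HNF4G promoter by -4.67 (exact permutation p = 0.5) and the HNF4A intronic site by 6.15 (exact permutation p = 0.4). Without SNDX-5613 replicate 3, ranked among the sites called in the 5 other libraries, the ONECUT1 promoter turned to 3.11 (exact permutation p = 0.7), the HNF4G promoter moved to -7.64 (exact permutation p = 0.5), the CEBPA promoter to 3.80 (exact permutation p = 0.3) and the HNF4A intronic site to 7.61 (exact permutation p = 0.1, the smallest possible). At the FOXA1 promoter the ranks were 21.9, 22.5 and 19.1 with DMSO and 9.41, 11.0 and 26.9 with SNDX-5613, a difference of -5.40 (exact permutation p = 0.4), in which the shallow library lay above all the others.

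Without SNDX-5613 replicate 3, 32 sites of the 8 genes were called in the 5 other libraries. Of these, 5 ranked higher in both SNDX-5613 than in all DMSO libraries, against 14.3% of all 59986 such sites, and 5 ranked lower, against 14.4%. The FOXA1 promoter was among the lower ones, at 44.0, 45.5 and 41.8 with DMSO and 27.9 and 31.4 with SNDX-5613, a difference of -14.1 (exact permutation p = 0.1, the smallest possible). The alternative start of ONECUT1 was another, at 22.8, 31.4 and 32.4 against 9.73 and 8.65, a difference of -19.7 (exact permutation p = 0.1). The others were the NR1H4 upstream site, the GAS2L3 promoter and an intronic HNF4G site 15112 bp from its canonical start. Higher were the HNF4A intronic site, at 68.0, 71.9 and 68.3 against 74.9 and 79.1, an intronic NR1H4 site 80925 bp from its canonical start, a site 54664 bp downstream of the ONECUT1 start and the promoters of SYMPK and IRF2BP1 near FOXA3. Sites of FOXA1, ONECUT1 and HNF4A thus did not overlap between the groups in the 5 deeper libraries, in a share near that of all sites.

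Other genes of the liver program give the setting of these 8. Of 19 further liver factors, 11 had an open promoter in all 6 libraries, among them ONECUT2, a paralog of ONECUT1, NR1H3, PPARA and CEBPB. In 2 it was closed in all 6, namely NR5A2, a regulator of bile acid synthesis genes, and NR1I2, the xenobiotic receptor PXR. Of 25 relatives of the 8 genes in the same DNA-binding families that do not define liver, 20 were open in all 6 libraries. Of 26 hepatocyte products and known targets, 1 was open in all 6, ASGR1, the asialoglycoprotein receptor, and 15 were closed in all 6. The shares over all protein-coding genes were 63.6% open in all 6 and 19.9% closed in all 6. Among genes with a CpG ratio below 0.6, 48.1% were closed in all 6, and the ratios of these lists were not compared. The products open in the 5 deeper libraries alone were AFP, TTR, APOB and F2. The targets of NR1H4 among them, ABCB11 and SLC51B, were closed in all 6 libraries, as was CYP7A1, the rate-limiting enzyme of bile acid synthesis. By library, 6, 6 and 6 of the 26 were open with DMSO and 10, 9 and 1 with SNDX-5613, a count in which the shallow library stood apart. Of all protein-coding genes, 71.9%, 74.6% and 73.2% were open with DMSO and 75.8%, 75.2% and 64.8% with SNDX-5613. The difference in the count of products was not tested.

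**Figure D5:**
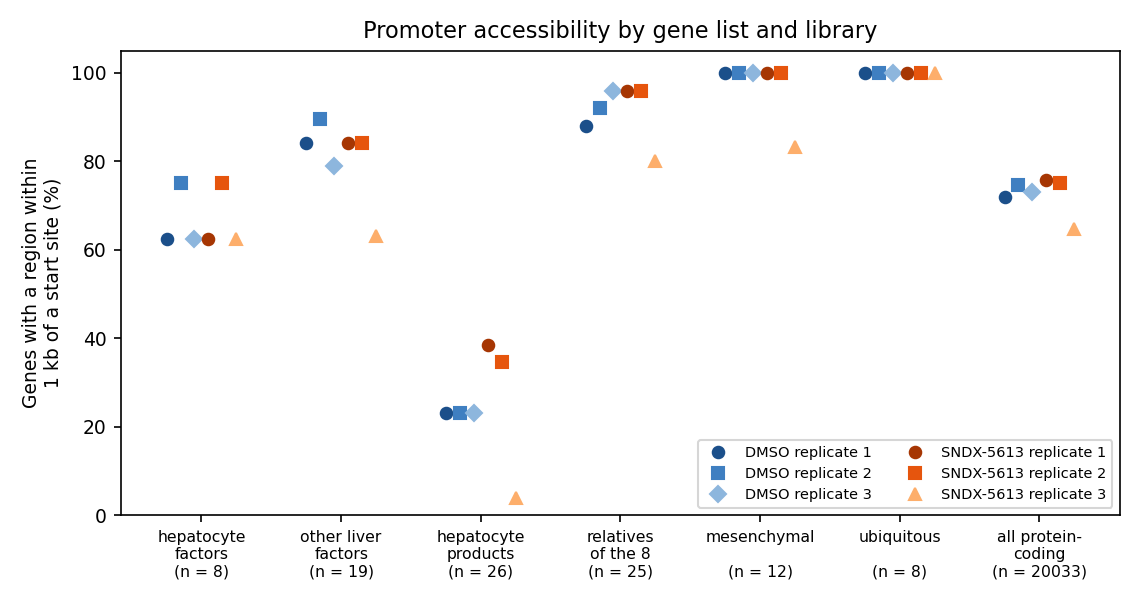
Share of genes with a region within 1 kb of a start site (y axis, percent) in each of the 6 libraries, for the 8 hepatocyte factors, the other gene lists and all protein-coding genes. The hepatocyte factors hold 5, 6 and 5 open promoters of 8 in both groups, hepatocyte products lie lowest, and SNDX-5613 replicate 3 lies below the other libraries in every list except the hepatocyte factors and the ubiquitous genes.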

How the data were processed

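ATAC-seq peak lists of 6 libraries of HLF cells (3 DMSO, 3 SNDX-5613) were analysed, grouped by the labels. Per the study's methods, nuclei were prepared by the Omni-ATAC protocol. The submitters' processing notes name Trim Galore 0.6.7, Bowtie2 2.3.4.1, Picard 2.20.0, SAMtools, deepTools 3.5.4, MACS2 and the build hg38. The authors called peaks separately in each library. For every summit, the deposited lists hold a fold enrichment, a -log10 p and a -log10 q, all computed by the authors. The fold is the ratio of the pileup to the local background with a constant added to both, so it shrinks at low depth. Per the study's methods, Picard marked duplicates, and whether these were removed before peak calling is not given in the sources used here, nor are a shift of reads for the transposase cut and a blacklist. Since regions were placed by their summits, a shift of a few bases moves few of them. The study tested read counts in consensus regions with a count model and reported regions that gained and regions that lost accessibility. Those counts were not analysed here. The deposited consensus lists were not used.

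Summits sharing a region were merged and the strongest kept. Sites were unions of regions over the libraries, with an overlap of at least 1 bp, on chromosomes 1 to 22, X and Y. Genes and starts came from GENCODE release 44 on hg38, and 0 peaks lay past a chromosome end. The 8 genes were named by all their start-site regions and some of their strongest other sites. Each site called in only one group or not overlapping in rank was also named. The members, the gene lists and the motifs were chosen with earlier results of these data known. Some sequences and 1 gene of the lists are not reported here. Depth was recovered by solving the deposited fold and p-value of each summit for a whole-number pileup, found for 100% of solved summits in every library and for 4.10% to 5.26% with p shuffled between summits. Called summits had a pileup of at least 3 fragments in the shallow SNDX-5613 replicate 3, and of at least 6 or 7 elsewhere, so weaker openness was not detectable. No read counts underlie the values, and counting intervals were not computed. Exact permutation tests were run in Python 3.11.15, and limma 3.58.1 (R 4.3.3) was fitted to quantile-normalised log2 of the deposited fold, with a trend and Benjamini-Hochberg adjustment, after it was tested on simulated data. Alternatives were a stricter -log10 q of 3, equal numbers of regions, other distances, another ranking or scaling, a replicate block and leaving out each library. Counts gene by gene and the site-by-site view of the 5 deeper libraries were added after seeing the data.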

Additional observations from a re-analysis of the deposited data

How the results depend on the processing

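The difference in the share of regions near the 8 genes ranged from -0.00443 to 0.00136 percentage points when 1 library was left out, and the difference in open promoters from -0.333 to 0.333 genes. With equal numbers of regions the latter was -0.667 genes (exact permutation p = 0.7), with FOXA1 open in 3 DMSO and 1 SNDX-5613 libraries. Sites called in DMSO alone numbered 3 at a -log10 q of at least 3, 0 with equal numbers of regions, 0 when a region had to cover 50% of the site, and 2 to 4 without 1 library, against 1 in the report. Sites called in SNDX-5613 alone numbered 0 to 3 without 1 library. Ranked by fold enrichment, 2 of 17 sites were higher, and without 1 library 1 to 5 were higher and 2 to 5 lower. At the site upstream of NR1H4 the rank difference stayed between -30.2 and -16.2 without 1 library and was -32.8 among all regions of a library, and limma's adjusted p ranged from 0.195 to 0.943 over its alternatives. The rank difference at the FOXA1 promoter ranged from -14.1 to -2.22 and at the ONECUT1 promoter from -11.4 to 3.11, so that the latter has no steady direction. Ranked among all regions of a library, the difference turned to -5.77 at the HNF4A intronic site and to -1.53 at the CEBPA promoter. At the FOXA1 promoter the difference was then -14.5 (exact permutation p = 0.1). The cause of these moves was not tested.

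The study's text describes replicates as divided dishes, so same-numbered libraries may be pairs, although it does not tie dishes to numbers. Deviations from the group means correlated by -0.00806, 0.0207 and -0.00444 between same-numbered libraries, so the data do not show whether the numbers mark pairs. With the replicate block limma called 4 sites of 33405 higher, with median centring 10, and without 1 library 0 to 8, against 0 in the report, and none was a site of the 8 genes. In sign-flip tests of the same-numbered libraries, which cannot go below p = 0.25, the block gave p = 0.75 for the share of regions and p = 1 for open promoters (exact permutation tests), and it changed no call at the 8 genes. SNDX-5613 replicate 3 had 16.2% of the depth of the others, and 15 of the 106 sites (14.2%, against 16.0% of all sites) were called in the 5 deeper libraries and not in it.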

Other observations

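Among the further liver factors, PROX1, a homeobox factor of liver and lymphatic development, was singled out after its values were seen. Its promoter region stood at percentiles 38.0, 61.1 and 47.4 of its library with DMSO and at 79.5 and 82.4 in SNDX-5613 replicates 1 and 2, and was not called in SNDX-5613 replicate 3. NR0B2, the FXR-induced repressor of bile acid synthesis, had a promoter region in DMSO replicates 2 and 3 alone, at 5.12 and 7.51. Of the hepatocyte products, TF (transferrin) and PCK1 (a gluconeogenic enzyme) had one in SNDX-5613 replicates 1 and 2 alone, TF at 34.4 and 22.6 and PCK1 at 28.4 and 23.8. These differences were not tested, and the shallow library held none of these 4 regions. Without the shallow library, 2.39% of all sites, at promoters or elsewhere, had a peak in both SNDX-5613 and no DMSO library. The same share among promoters was not computed.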
